A study of Homo sapiens with 18 samples.

Results

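The ephrins, semaphorins, netrins and SLITs are families of guidance cues, and they are described here together with their receptors in EA.hy926 cells, an endothelial line. Membership was set by gene symbol: ephrins A and B, the EPHA and EPHB receptors, semaphorins of classes 3 to 7, plexins, neuropilins, SLIT1 to SLIT3, ROBO1 to ROBO4, NTN1, NTN4 and UNC5A to UNC5D. Of the 62754 genes in the count matrix 66 fitted the rule, and 44 of these 66 had enough counts to be tested.

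The study asked how lowering ELMO1, an adaptor protein that works with DOCK proteins to activate the small GTPase RAC1, changes endothelial cells at rest and under poly(I:C), a synthetic double-stranded RNA that stands in for viral RNA. Mock cells were given transfection reagent alone, siNT cells were given siRNA with no target and siELMO1 cells were given a pool of siRNAs against ELMO1. The siRNA was used at 10 nM. Poly(I:C) was used at 1 µg/ml from 48 h after transfection, so 0 h is 48 h after transfection. RNA was taken from each transfection without poly(I:C) (0 h) and at 24 h of exposure, with 3 libraries for each of the 6 conditions and 18 in all, and all cells had been serum-starved. No library came from cells kept for these 24 h without poly(I:C). In changes from 0 h to 24 h, poly(I:C) and 24 h more of culture therefore cannot be told apart. EA.hy926 was made by fusing umbilical vein endothelial cells with the lung epithelial line A549, so the values are those of 1 hybrid line and of 1 pool of siRNAs.

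Guidance cues were first described in growing axons, and endothelial cells use the same molecules to branch, to repel each other and to set the identity of arteries and veins. Ephrins are membrane-bound ligands of the Eph receptor tyrosine kinases. Semaphorins bind plexins, and most of the secreted class 3 members also need a neuropilin as co-receptor. SLIT proteins bind members of the ROBO family, and netrins bind UNC5 receptors among others. Many of these receptors act on the cell skeleton.

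The 18 libraries held between 40.4 and 73.9 M estimated counts each. Levels are given as CPM, counts scaled to the library total after TMM normalisation (a scaling that evens out composition between libraries), and a listed 0 allows up to 3 counts in a library, for counting error only. ELMO1 itself lay between 2.66 and 3.32 CPM in the siNT and between 0.299 and 0.419 CPM in the siELMO1 libraries at 0 h (log2 fold change -3.11 ± 0.28, adjusted p = 2.7e-08 by edgeR's quasi-likelihood test with Benjamini-Hochberg adjustment, as throughout). Replicate 1 of siELMO1 at 0 h differed from replicates 2 and 3 by a chi-square of 60.9 and 67.7 per degree of freedom over genes, against 9.47 to 25.6 for the other pairs within a condition. The mitochondrial share of counts was 4.02 and 3.95% in replicates 2 and 3 of siELMO1 at 0 h, against 1.31 to 2.42% in the other 16 libraries, replicate 1 among them (1.86%). The part of this share in the results was not tested. Many of the values that rest on this condition are also given without replicate 1. Of 12 endothelial markers 10 had a mean of at least 1 CPM and EMCN was under 0.05 CPM, while 4 of 10 epithelial markers reached that mean and CDH1, SFTPB and SFTPC were under 0.05 CPM. The summed endothelial markers were 2953 to 3154 CPM in siELMO1 at 0 h against 2123 to 2353 CPM in the controls, and 2707 to 3290 against 1554 to 2258 CPM at 24 h. PECAM1 and EGFL7 differed from the sum, with means of 225 and 209 CPM in siELMO1, 314 and 311 in siNT and 165 and 207 in Mock at 0 h. The other endothelial markers with a mean of at least 1 CPM were above siNT at 0 h. PECAM1 was below siNT at 24 h too (188 against 231 CPM). The summed epithelial markers also were highest in siELMO1 at 0 h (2107 to 2230 CPM against 1521 to 1915 CPM) and at 24 h (1106 to 1322 against 851 to 1060 CPM). Of the markers of other cells 2 of 6 for fibroblasts and mural cells, 1 of 4 for leukocytes and 2 of 4 for neural cells had a mean of at least 1 CPM. The fibroblast and mural sum was 80.2 to 89.3 CPM in siELMO1 at 0 h against 44.04 to 54.1 CPM in the controls and 77.8 to 89.4 against 39.3 to 78.1 CPM at 24 h, with PDGFRA, LUM and DCN under 0.05 CPM. The part of any of these lists in the results was not tested.

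Levels of different genes were compared per length, as CPM per kilobase of exon (RPKM). The highest guidance gene was EPHA2, an ephrin-A receptor, at a mean of 80.2 RPKM over all libraries. It was followed by SEMA6B, a membrane semaphorin, at 44 RPKM and by NTN4, a netrin of basement membranes, at 42.9 RPKM. SLIT2, NRP1, PLXNB2, SEMA3C and PLXNA2 followed, between 31.6 and 25.2 RPKM. These 8 genes cover most of the families: a secreted and a membrane semaphorin with a neuropilin and plexins for them, a SLIT, a netrin and an Eph receptor. All 11 neuropilins and plexins passed the filter, against 6 of 14 Eph receptors and 3 of 6 netrin and UNC5 genes.

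Some receptors were abundant where a ligand was not, and the reverse. EPHB4, the Eph receptor of veins, had a mean of 16.3 RPKM, while its ligand EFNB2, the ephrin of arteries, was at 0 to 0.297 CPM in all libraries and did not pass the filter. Among the ephrins the highest per length were EFNA4 with 6.36 and EFNB1 with 3.32 RPKM. Of the ROBO family, ROBO4 (13.9 RPKM), ROBO3 (4.56 RPKM) and ROBO1 (3.32 RPKM) were present, and ROBO2 was listed at 0 in every library. UNC5B, the UNC5 receptor known from endothelium, had a mean of 0.154 RPKM, against 42.9 RPKM for NTN4. In all, 7 members (EPHA3, EPHA7, EPHA8, EPHA10, EPHB6, ROBO2 and SEMA5B) were listed at 0 in all libraries, and 35 members reached 1 CPM in all 6 conditions. EPHA1 and NTN1 passed the filter only through replicate 3 of siELMO1 at 24 h, with 1.18 and 1.26 CPM. EFNA3 and EFNA4 share exons with a readthrough gene on the same strand, over 43.9 and 15% of their exon bases, and counts between them are uncertain.

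**Figure D1:**
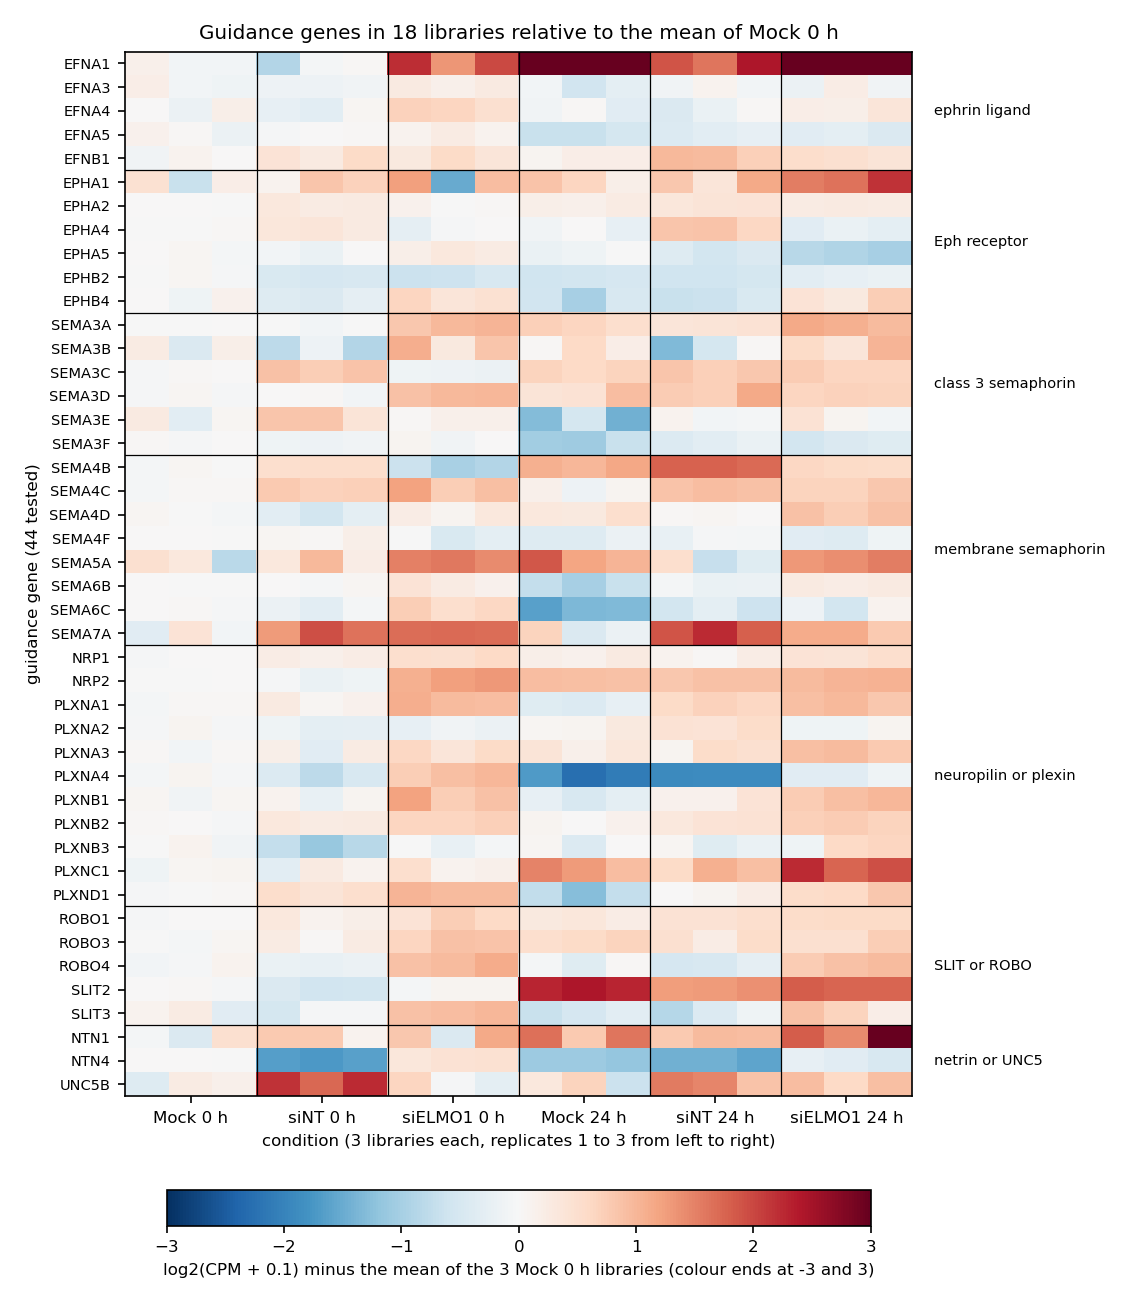
Heat map of the 44 tested guidance genes (rows, grouped by role) in the 18 libraries (columns), coloured by log2(CPM + 0.1) minus the mean of the 3 Mock 0 h libraries, with the colour ending at -3 and 3. EFNA1 and SLIT2 are red in all 24 h libraries, PLXNA4 is blue in the control libraries at 24 h, and most plexins and ROBO4 are redder in siELMO1 than in the controls of the same time.

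Before poly(I:C), most of the tested guidance genes were higher in siELMO1 cells than in the controls. Against siNT, 28 of 44 were higher and 7 lower, where 31.3% of the 15167 genes tested were higher and 31.3% lower. Without replicate 1, 2 or 3 of siELMO1 at 0 h these counts were 25 and 6, 27 and 5, and 26 and 7. Against Mock, 26 were higher and 3 lower, beside 27.9% and 22.4% of all genes, and the 3 lower became 5 with DESeq2, with upper-quartile or no TMM factors, with the replicate block and without replicate 1 or 3 of Mock or replicate 3 of siELMO1 at 24 h. Both comparisons use the same siELMO1 libraries. The 24 genes higher than both controls (54.5% of the tested members, beside 18% of all genes) included these receptors: NRP1 and NRP2, PLXNA1, PLXNA3, PLXNA4, PLXNB1, PLXNB2 and PLXND1, ROBO1, ROBO3 and ROBO4. SEMA3C and SEMA4B were lower than both, beside 16.7% of all genes. The median log2 fold change of the tested members was 0.39 against siNT and 0.53 against Mock, and that of all genes 0.00 and 0.04. The libraries hold bulk RNA, in which fewer cells of a kind and less RNA per cell cannot be told apart.

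After 24 h of poly(I:C) more members were again higher than lower in siELMO1. The study reported massive death of siNT cells at this time, with less in Mock and siELMO1. The part of this death in the 24 h values of siNT was not tested. Against siNT 23 members were higher and 7 lower (26% and 26.5% of all genes), and against Mock 26 were higher and 4 lower (21.6% and 22%). The 23 include NTN1, which passed the filter only through siELMO1 at 24 h, so its call adds no support. Higher than both controls were 18 members (12.2% of all genes), and EPHA5, PLXNA2 and SEMA4B were lower than both (11.3%). Of these genes 16 were higher than both controls at both times, beside 8.25% of all genes: EFNA1, EFNA4, EPHB4, SEMA3A, SEMA4D, SEMA6B, NRP1, PLXNA1, PLXNA3, PLXNA4, PLXNB1, PLXNB2, PLXND1, ROBO4, SLIT3 and NTN4. In all 16 the siELMO1 libraries did not overlap those of either control. Most called members did the same (27 of the 28 higher than siNT at 0 h), so this adds no support to the calls. The share over all genes was not counted. SEMA4B was the 1 member lower in all 4 comparisons, beside 6.47% of all genes. All 16 calls and that of SEMA4B held without siELMO1 0 h replicate 1, but some calls of EFNA4, SEMA4D and SEMA6B were lost under at least 1 of the 26 other settings. The folds of the 16 ran from 1.16 to 11.4, and of them only EFNA1 was over 2-fold in all 4 comparisons. The median log2 fold change of the tested members at 24 h was 0.32 against siNT and 0.46 against Mock, and that of all genes was -0.01 in both.

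**Figure D2:**
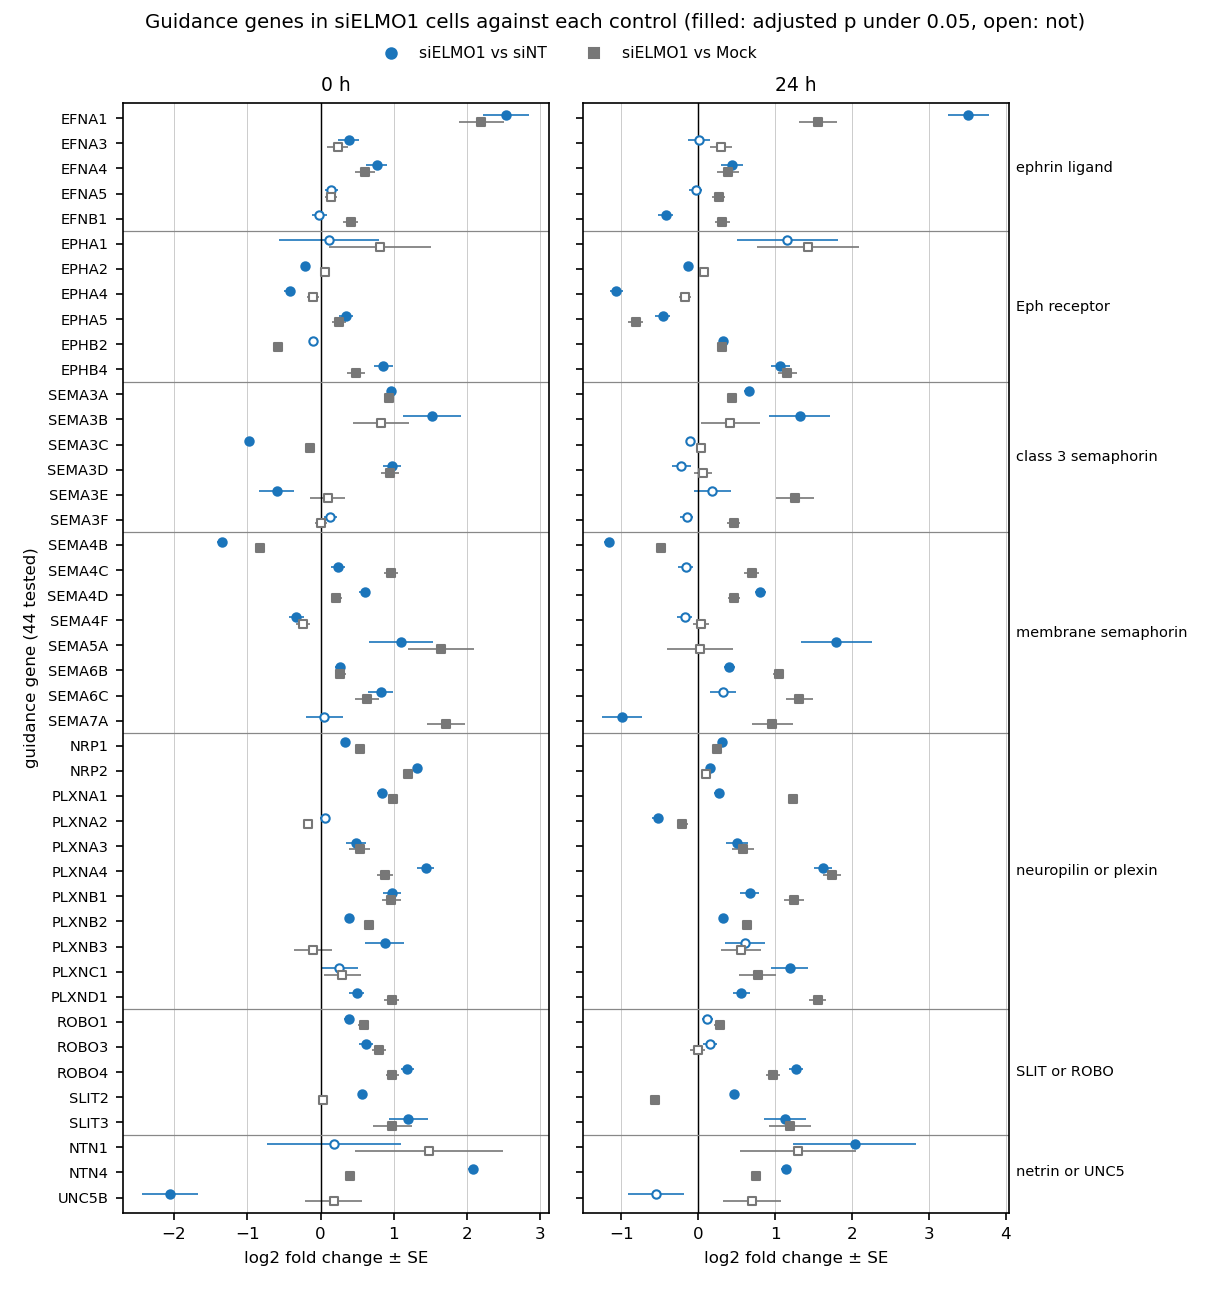
Log2 fold change with its SE (x axis) of the 44 tested guidance genes (y axis) in siELMO1 cells against siNT (circles) and against Mock (squares), at 0 h (left) and 24 h (right), with filled symbols for an adjusted p under 0.05. ROBO4 and the plexins other than PLXNA2 and PLXNB3 sit to the right of 0 in all 4 comparisons and SEMA4B to the left, while SEMA7A lies on opposite sides for the siNT and Mock comparisons at 24 h.

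Among the ephrin ligands, EFNA1 stood out (ENSG00000169242.12, chr1:155127876-155134899, plus strand, GRCh38 with GENCODE annotation, as for all genes below). EFNA1 is a ligand of EPHA2 and is known as a gene that inflammatory cytokines raise in endothelium. At 0 h it was near the lower end of what could be tested, at 0.382, 0.311 and 0.307 CPM in Mock, 0.135, 0.312 and 0.344 in siNT and 1.92, 0.980 and 1.62 in siELMO1. All siELMO1 libraries lay above all control libraries, 5.78-fold above siNT (log2 fold change 2.53 ± 0.32, adjusted p = 2e-06) and 4.58-fold above Mock (log2 fold change 2.20 ± 0.31, adjusted p = 1e-05). Without siELMO1 0 h replicate 1 these log2 fold changes were 2.31 and 1.97. After 24 h of poly(I:C) it was at 6.88, 4.92 and 7.49 CPM in Mock, 1.51, 1.22 and 2.22 in siNT and 17.2, 18.6 and 20.9 in siELMO1. The 3 transfections did not overlap at 24 h, with siNT lowest, Mock between and siELMO1 highest. The distance was 11.4-fold to siNT (log2 fold change 3.52 ± 0.27, adjusted p = 1.1e-08) and 2.94-fold to Mock (log2 fold change 1.56 ± 0.25, adjusted p = 5.5e-05).

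The other ephrins moved less. EFNA4 was higher in siELMO1 than in both controls, at 11.4 ± 0.825 CPM (mean ± SD, n = 3) against 6.72 ± 0.987 in siNT and 7.51 ± 0.955 in Mock at 0 h, with log2 fold changes of 0.77 ± 0.14 and 0.61 ± 0.14. EFNB1, a ligand of EphB receptors, differed mainly between the controls. Its mean was 9.13 ± 0.388 CPM in Mock, 15.2 ± 1.45 in siNT and 11.3 ± 0.562 in siELMO1 at 24 h, so siELMO1 was above Mock and below siNT. EFNA5 had no call in siELMO1 at 0 h and was higher than Mock alone at 24 h (log2 fold change 0.26 ± 0.08, adjusted p = 0.018, a call lost under 5 of 26 other settings).

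Among the Eph receptors, EPHB4 (ENSG00000196411.10, chr7:100802565-100827523, minus strand) was higher in siELMO1 in all 4 comparisons. It measured 107, 97.8 and 117 CPM in Mock, 81.5, 78.6 and 88.4 in siNT and 167, 137 and 146 in siELMO1 at 0 h. With poly(I:C) it was at 71.3, 53.2 and 76.4 CPM in Mock, 67.4, 69.0 and 78.0 in siNT and 141, 131 and 178 in siELMO1, with no siELMO1 library as low as any control at either time. The log2 fold changes were 0.86 ± 0.13 and 0.48 ± 0.12 against siNT and Mock at 0 h and 1.07 ± 0.13 and 1.16 ± 0.13 at 24 h (adjusted p = 1.8e-06 and 9.1e-07 at 24 h). EPHA2, the receptor of EFNA1, had condition means from 289 to 379 CPM. It was lower in siELMO1 than in siNT at both times (log2 fold change -0.22 ± 0.04 and -0.13 ± 0.04) and did not pass the test against Mock (0.06 ± 0.04 and 0.07 ± 0.04). EPHA4 was likewise called only against siNT, most of all at 24 h, with 25.2 ± 1.27 CPM against 52.6 ± 4.45 CPM (log2 fold change -1.06 ± 0.08, adjusted p = 8.6e-09), while Mock was at 28.4 ± 2.61 CPM.

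The class 3 semaphorins are secreted, and most signal through neuropilins and plexins. SEMA3A, best known as a repellent, rose in siELMO1 from 95.0 ± 2.43 CPM in siNT and 97.1 ± 0.831 CPM in Mock to 185 ± 14.7 CPM at 0 h (log2 fold change 0.96 ± 0.06, adjusted p = 3.5e-10 against siNT). At 24 h its mean was 202 ± 12.6 CPM in siELMO1 against 128 ± 2.77 in siNT and 149 ± 11.7 in Mock. SEMA3D was also higher than both controls at 0 h (log2 fold change 0.97 ± 0.12 and 0.95 ± 0.12) but at 24 h its values were -0.22 ± 0.12 and 0.06 ± 0.12, neither called. SEMA3C (ENSG00000075223.14, chr7:80742538-80922359, minus strand) took the opposite course at 0 h. It was at 117, 123 and 120.4 CPM in Mock, 219, 201 and 217 in siNT and 109, 109 and 107 in siELMO1. The siNT libraries were thus far above both other groups, and siELMO1 was close below Mock (log2 fold change -0.97 ± 0.05, adjusted p = 6.8e-12 against siNT, and -0.15 ± 0.05, adjusted p = 0.015, against Mock).

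Neuropilins and plexins, the receptors of semaphorins, had 8 of 11 tested members higher than both controls at 0 h (18% of all genes) and 0 lower than either (31.3% of all genes against siNT and 22.4% against Mock). NRP2 (ENSG00000118257.17, chr2:205681990-205798133, plus strand), a co-receptor of class 3 semaphorins and of lymphatic growth factors, had the smallest adjusted p of these. It measured 109, 109.7 and 112 CPM in Mock, 107, 96.6 and 101 in siNT and 229.7, 257 and 274 in siELMO1 at 0 h. Each siELMO1 library was more than 2-fold above each control library (log2 fold change 1.32 ± 0.06, adjusted p = 1.4e-12 against siNT, log2 fold change 1.20 ± 0.06, adjusted p = 7e-12 against Mock), and without replicate 1 the log2 fold changes were 1.39 and 1.27. At 24 h the groups had drawn together, with 208, 206 and 204 CPM in Mock, 193, 202 and 204 in siNT and 213, 223 and 229 in siELMO1, and the difference from Mock was not called (0.10 ± 0.06, adjusted p = 0.14). NRP1 was higher in siELMO1 throughout, by smaller steps, at 429 ± 18.3 CPM against 340.2 ± 10.6 in siNT and 296 ± 4.53 in Mock at 0 h.

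PLXNA4 (ENSG00000221866.10, chr7:132123340-132648688, minus strand), a plexin that pairs with neuropilins, was at 65.3, 71.3 and 66.2 CPM in Mock, 50.6, 39.4 and 48.3 in siNT and 113, 126 and 135 in siELMO1 at 0 h. Under poly(I:C) for 24 h it was at 20.8, 14.0 and 15.7 CPM in Mock, 18.0, 18.3 and 18.2 in siNT and 53.5, 53.6 and 61.5 in siELMO1. No siELMO1 library overlapped a control at either time. At 0 h the log2 fold changes were 1.43 ± 0.11 against siNT and 0.88 ± 0.11 against Mock (the latter 0.95 without replicate 1, where both were still called). The distance at 24 h was 3.09-fold to siNT (log2 fold change 1.63 ± 0.12, adjusted p = 5.4e-09) and 3.34-fold to Mock (log2 fold change 1.74 ± 0.12, adjusted p = 4.1e-09). PLXND1 (ENSG00000004399.13, chr3:129555214-129606676, minus strand), the endothelial receptor of SEMA3E, was at 81.1, 55.5 and 82.2 CPM in Mock, 136, 143 and 157 in siNT and 199, 206 and 238 in siELMO1 at 24 h. Here the groups were stepped, Mock below siNT below siELMO1. The log2 fold changes of siELMO1 were 1.56 ± 0.11 (adjusted p = 5.4e-09) against Mock and 0.56 ± 0.11 (adjusted p = 0.00028) against siNT. PLXNA1 (ENSG00000114554.12, chr3:126982693-127037389, plus strand) showed a like pattern at 24 h, with 44.3, 42.7 and 47.5 CPM in Mock, 84.7, 91.4 and 86.8 in siNT and 106, 111 and 99.8 in siELMO1, and a log2 fold change of 1.23 ± 0.06 against Mock. PLXNB2, the most abundant plexin per length, was at 252 ± 7.05 CPM in siELMO1 at 0 h against 192 ± 5.71 and 158 ± 4.05 CPM in siNT and Mock. PLXNA2, nearly as abundant, was not among the genes that rose: at 24 h it was lower in siELMO1 than in siNT (log2 fold change -0.52 ± 0.07, adjusted p = 9.5e-06) and Mock (-0.21 ± 0.07, adjusted p = 0.026, where a siELMO1 and a Mock library overlapped).

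Among the membrane semaphorins, SEMA4B (ENSG00000185033.15, chr15:90160604-90229679, plus strand) was the member that fell with ELMO1 siRNA against both controls at both times. It was at 50.6, 54.9 and 51.7 CPM in Mock, 74.5, 75.2 and 75.5 in siNT and 33.4, 26.7 and 28.2 in siELMO1 at 0 h. At 24 h it was at 109, 104 and 116 CPM in Mock, 179.5, 177 and 170.5 in siNT and 80.5, 77.6 and 76.8 in siELMO1. The order siELMO1, Mock, siNT held in all libraries at each time, with log2 fold changes against siNT of -1.35 ± 0.07 at 0 h and -1.17 ± 0.06 at 24 h (adjusted p = 8.3e-12 and 1.9e-10) and against Mock of -0.83 ± 0.07 and -0.49 ± 0.06 (adjusted p = 1e-08 and 7.1e-06). Without siELMO1 0 h replicate 1 the 0 h values were -1.45 and -0.93. SEMA4D, a ligand of PLXNB1, went the other way, at 41.9 ± 2.23 CPM in siELMO1 against 23.9 ± 0.397 in siNT and 30.4 ± 2.50 in Mock at 24 h. PLXNB1 itself was at 16.4 ± 1.28 CPM in siELMO1 against 10.3 ± 1.23 and 6.91 ± 0.559 CPM. SEMA6B was at 252 ± 3.94 CPM in siELMO1 against 191 ± 9.49 in siNT and 122 ± 13.7 in Mock at 24 h.

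SEMA7A (ENSG00000138623.10, chr15:74409289-74433958, minus strand), a semaphorin anchored in the membrane by a lipid, differed from Mock in both siRNA groups. It was at 1.12, 1.96 and 1.36 CPM in Mock, 3.65, 5.74 and 4.69 in siNT and 4.82, 4.92 and 4.83 in siELMO1 at 0 h. Both siRNA groups were above Mock, with log2 fold changes of 1.71 ± 0.27 for siELMO1 (adjusted p = 3.4e-05, and 1.72 without siELMO1 0 h replicate 1) and 1.66 ± 0.26 for siNT (adjusted p = 4.6e-05), and the difference between them was not called (0.05 ± 0.25, adjusted p = 0.88). After 24 h of poly(I:C) it was at 2.34, 1.04 and 1.27 CPM in Mock, 5.56, 7.22 and 5.25 in siNT and 3.23, 3.25 and 2.56 in siELMO1, so siELMO1 was above Mock (0.97 ± 0.27) and below siNT (-0.99 ± 0.26).

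All 5 tested SLIT and ROBO genes were higher in siELMO1 than in siNT at 0 h, and 4 of them also than in Mock, where 31.3% and 27.9% of all genes were higher. ROBO4 (ENSG00000154133.15, chr11:124883691-124898500, minus strand), the ROBO receptor of endothelium, was at 71.7, 73.4 and 81.3 CPM in Mock, 65.8, 64.4 and 66.4 in siNT and 139, 146 and 162 in siELMO1 at 0 h. With poly(I:C) it was at 72.6, 58.9 and 77.1 CPM in Mock, 52.9, 54.2 and 62.6 in siNT and 127, 138 and 146 in siELMO1. The siELMO1 libraries were far above every control library at both times (log2 fold change 1.18 ± 0.09, adjusted p = 3.1e-09 against siNT at 0 h and log2 fold change 1.27 ± 0.09, adjusted p = 4.3e-09 at 24 h). Without replicate 1 the 0 h values were 1.23 against siNT and 1.03 against Mock, and 18% of its exon bases lie under exons of genes on the other strand. ROBO1 and ROBO3 were higher than both controls at 0 h (log2 fold changes from 0.39 to 0.80), while at 24 h ROBO3 was called against neither (0.15 ± 0.09 and -0.01 ± 0.09). SLIT3, at a low level, was at 2.10 ± 0.0921 CPM in siELMO1 against 0.913 ± 0.183 in siNT and 1.07 ± 0.233 in Mock at 0 h. SLIT2 depended on the control: at 24 h it was above siNT (log2 fold change 0.47 ± 0.05) and below Mock (-0.57 ± 0.05).

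Of the netrins and their receptors, NTN4 (ENSG00000074527.13, chr12:95657807-95791189, minus strand) was abundant and differed between all transfections. It was at 267, 267 and 261 CPM in Mock, 84.2, 80.4 and 85.3 in siNT and 336, 356 and 361 in siELMO1 at 0 h. The 24 h libraries were at 125, 125 and 118 CPM in Mock, 97.2, 97.5 and 88.9 in siNT and 224, 208 and 190.3 in siELMO1. The groups did not overlap at either time and kept the order siNT, Mock, siELMO1. At 0 h siELMO1 was 4.22-fold above siNT (log2 fold change 2.08 ± 0.06, adjusted p = 1.5e-14) and 1.33-fold above Mock (log2 fold change 0.41 ± 0.06, adjusted p = 9e-06), and without replicate 1 the log2 fold changes were 2.11 and 0.44. UNC5B (ENSG00000107731.12, chr10:71212570-71302864, plus strand) was at a low level, 0.352, 0.595 and 0.550 CPM in Mock, 2.54, 1.84 and 2.69 in siNT and 0.817, 0.477 and 0.379 in siELMO1 at 0 h. Here siNT was the group that stood apart, above Mock (log2 fold change 2.23 ± 0.38, adjusted p = 8.5e-05), and siELMO1 was below siNT (log2 fold change -2.05 ± 0.38, adjusted p = 0.00013) but not called against Mock (0.18 ± 0.39, adjusted p = 0.73). Without replicate 1 the value against siNT was -2.46. Under poly(I:C) for 24 h it was at 0.629, 0.828 and 0.274 CPM in Mock, 1.64, 1.52 and 0.963 in siNT and 1.02, 0.793 and 0.999 in siELMO1, with siNT again above Mock (log2 fold change 1.25 ± 0.38, adjusted p = 0.011) and siELMO1 and siNT overlapping.

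**Figure D3:**
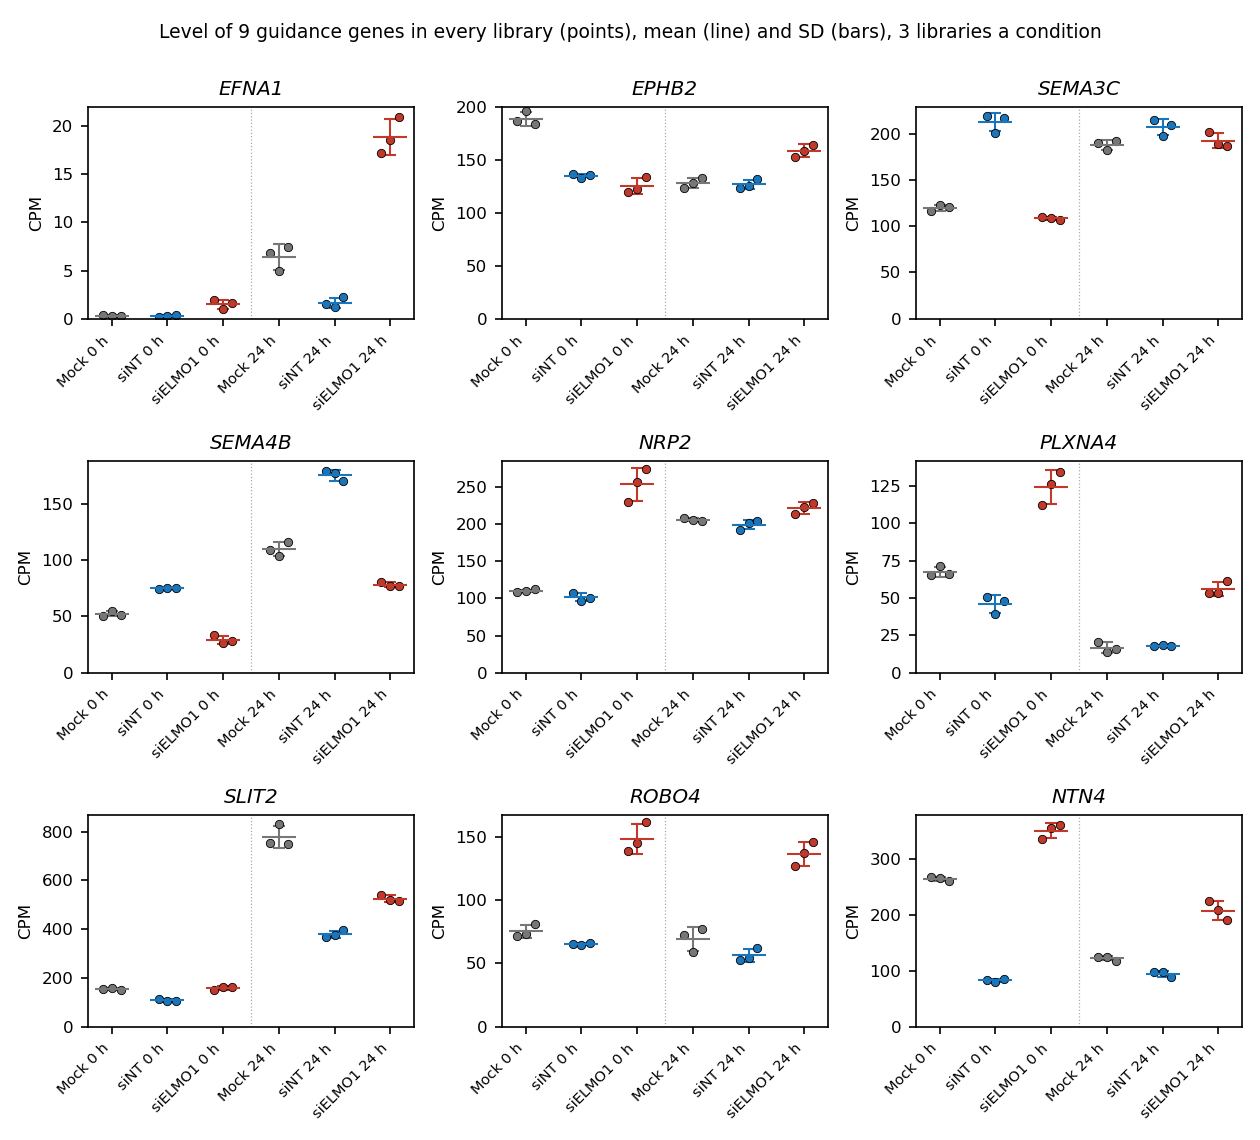
Level in CPM (y axis, from 0) of 9 guidance genes in each of the 6 conditions (x axis), with a point for each library, a line at the mean and bars for the SD of 3 libraries. ROBO4 and PLXNA4 are higher in siELMO1 than in both controls at both times, SEMA4B is lower, NTN4 is lowest in siNT, and SLIT2 and EFNA1 are higher at 24 h than at 0 h in every transfection.

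The controls also differed in these genes. At 0 h 13 members were higher and 8 lower in siNT than in Mock (27.6% and 24% of all genes, against 29.5% and 18.2% of the tested members), and at 24 h 18 were higher and 8 lower (25.2% and 24.9%). The largest at 0 h were UNC5B, SEMA7A and NTN4, with NTN4 3.18-fold lower in siNT (log2 fold change -1.67 ± 0.06, adjusted p = 4.2e-13). At 24 h they were SEMA7A (1.96 ± 0.27, adjusted p = 1e-05), EFNA1 (-1.96 ± 0.26, adjusted p = 7.7e-06) and UNC5B among the members with a mean of at least 1 CPM. With the replicate number as a block, SEMA3D was also called at 24 h (adjusted p = 0.041 against 0.063 without it). The median log2 fold change of the tested members was 0.00 at 0 h and 0.15 at 24 h, and that of all genes 0.03 and 0.00.

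Members were called in both directions after 24 h of poly(I:C), in shares of the 44 that in Mock and siELMO1 were near those of all genes. A response here and below is the change from 0 h to 24 h, which also holds 24 h more of culture. In Mock 15 were higher and 13 lower than at 0 h (30.7% and 29.6% of all genes). In siNT 18 were higher and 5 lower (28.6% and 25.2%), and in siELMO1 10 were higher and 12 lower (28% and 26.9%). The 10 also include NTN1, which passed the filter only through siELMO1 at 24 h. The splits moved with the processing. Leaving out TMM factors shifted the log2 fold changes in Mock by a median of -0.12 over the tested members and ELMO1. Without these factors 13 were higher and 18 lower in Mock and 15 and 7 in siNT. In siNT 8 were lower with DESeq2 and without Mock 24 h replicate 3, and the split was 15 and 10 with upper-quartile scaling and 15 and 11 with a fit to the compared groups alone. In siELMO1 it was 12 and 9 without siELMO1 0 h replicate 1 and 10 and 7 without siELMO1 24 h replicate 1, and 7 were lower without a filter on low counts. Higher in all 3 transfections were EFNA1, EPHA2, PLXNC1, SEMA4B, SEMA4D and SLIT2 (14.4% of all genes), and lower in all 3 were EFNA5, PLXNA4 and PLXND1 (11.6%). PLXND1 lost its call in siELMO1 without siELMO1 0 h replicate 1, and EPHA2, which rose by under 1.2-fold, lost its call in siNT under 12 of 26 other settings. The median log2 fold change of the tested members was 0.07 in Mock, 0.14 in siNT and -0.06 in siELMO1, and that of all genes 0.01, 0.01 and 0.00.

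**Figure D4:**
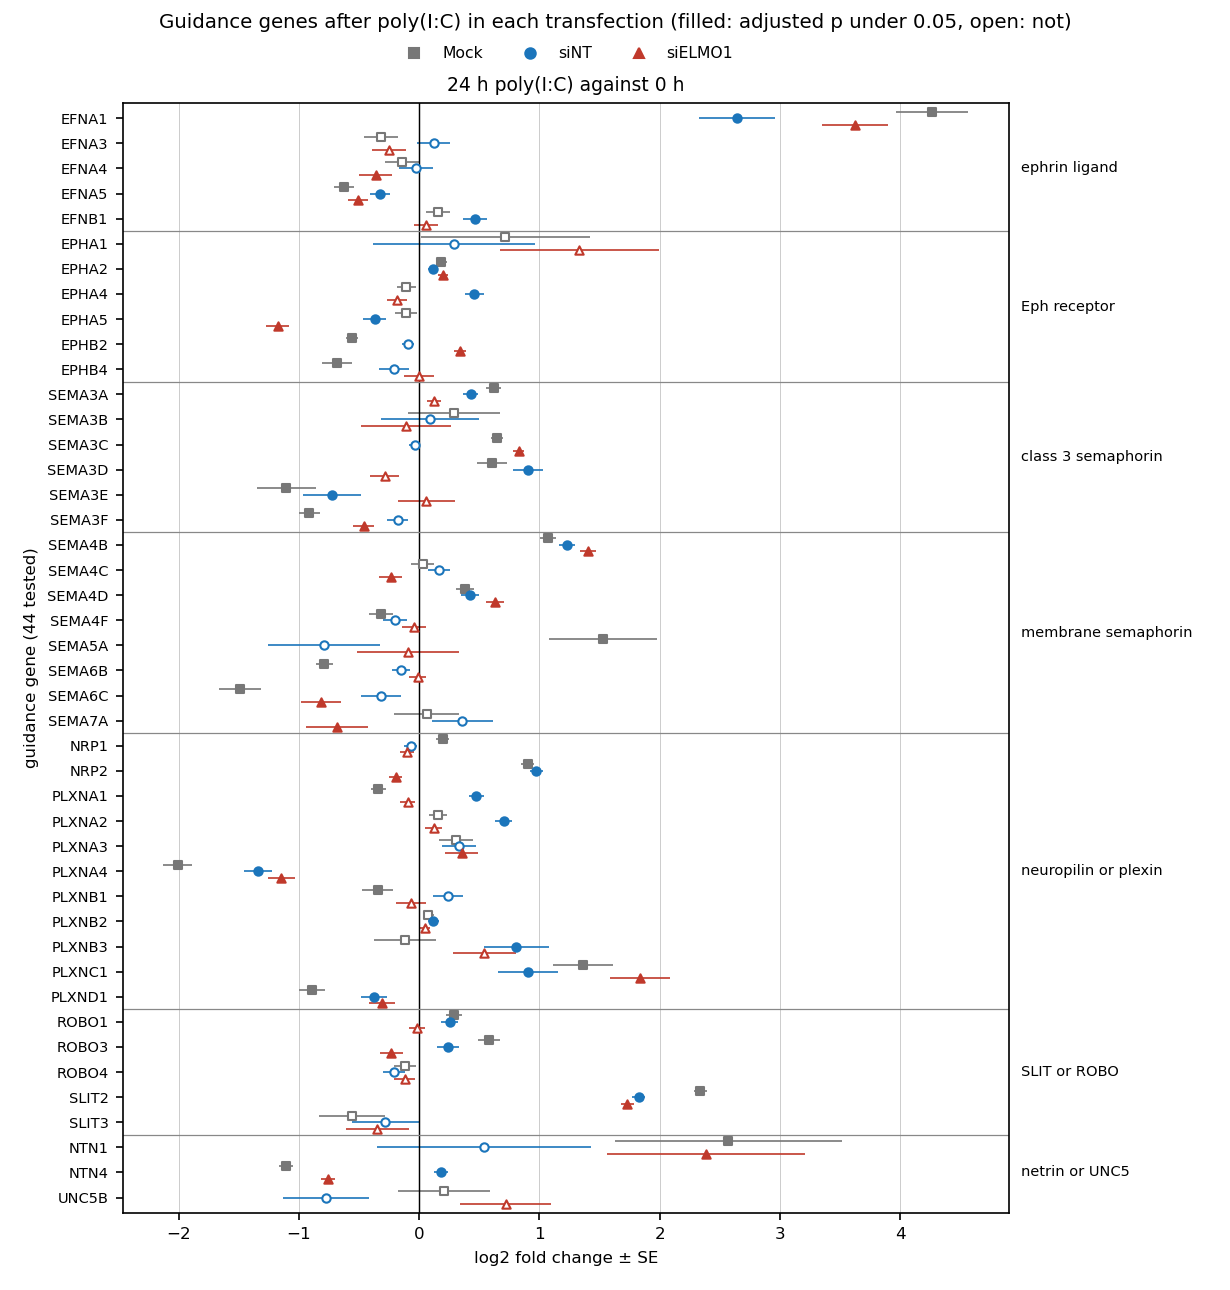
Log2 fold change with its SE (x axis) between 24 h of poly(I:C) and 0 h for the 44 tested guidance genes (y axis) in Mock (squares), siNT (circles) and siELMO1 (triangles), with filled symbols for an adjusted p under 0.05. EFNA1, SLIT2 and SEMA4B lie right of 1 and PLXNA4 left of -1 in all 3 transfections, while NRP2, NTN4 and EPHB2 split by transfection.

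EFNA1, SLIT2 and SEMA4B rose by more than 2-fold in all 3 transfections, and their promoters are shown because they are the members that rose this far together. The sequences are the 250 bases before a RefSeq start (GRCh38.p14) of each gene, written 5′ to 3′. In all 3 this is the start of the transcript with the most counts, and in SEMA4B it lies inside the gene as annotated. The windows are at chr1:155127626-155127875, chr4:20251655-20251904 and chr15:90201080-90201329, all on the plus strand. Capitals mark the GC box GGGCGG on either strand and, in SLIT2, the run TATANA, whose letters were chosen after the sequence was read.
EFNA1: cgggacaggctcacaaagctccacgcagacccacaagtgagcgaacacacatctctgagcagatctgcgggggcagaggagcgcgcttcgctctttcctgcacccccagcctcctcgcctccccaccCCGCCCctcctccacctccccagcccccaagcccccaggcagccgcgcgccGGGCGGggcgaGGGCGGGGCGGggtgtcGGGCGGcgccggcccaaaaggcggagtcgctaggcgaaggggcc
SLIT2: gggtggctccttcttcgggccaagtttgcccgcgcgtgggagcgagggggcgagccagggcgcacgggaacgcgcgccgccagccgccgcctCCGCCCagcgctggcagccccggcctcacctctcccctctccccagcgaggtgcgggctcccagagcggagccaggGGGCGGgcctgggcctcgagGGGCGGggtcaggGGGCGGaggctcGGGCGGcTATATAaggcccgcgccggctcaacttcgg
SEMA4B: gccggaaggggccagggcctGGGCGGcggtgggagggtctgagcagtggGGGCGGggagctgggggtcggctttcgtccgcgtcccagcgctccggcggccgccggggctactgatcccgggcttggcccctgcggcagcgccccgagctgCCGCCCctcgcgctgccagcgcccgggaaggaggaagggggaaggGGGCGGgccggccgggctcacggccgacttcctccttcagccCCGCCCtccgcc
Each of these windows holds 5 GC boxes, a pair of which overlap in EFNA1. GC boxes are in 42.6% of the 35116 RefSeq promoters of the same length and in those of 50 of the 57 members that have one, so they do not set these 3 genes apart, and the run TATANA, in 17.7% of promoters, lies 30 to 25 bases before the SLIT2 start. None of the windows holds the AP-1 motif TGANTCA (6.57% of promoters), the interferon response motif GAAANNGAAA (3.02%) or the NF-kB consensus (9.96%), each searched on both strands. The GC content was 73.2, 77.2 and 79.2%, against a median of 58% over all promoters. Of the 57 members with a RefSeq promoter, 10 held an NF-kB match, among them NTN4, PLXNA1 and a further start of SEMA4B, PLXNC1 held the AP-1 motif and EPHA4 the interferon motif. A member was counted if any of its promoters matched, so counts of members cannot be set against shares of single promoters.

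EFNA1 had the largest response, 19.2-fold in Mock (log2 fold change 4.27 ± 0.30, adjusted p = 1.2e-09), 6.24-fold in siNT (log2 fold change 2.64 ± 0.32, adjusted p = 1.8e-06) and 12.4-fold in siELMO1 (log2 fold change 3.63 ± 0.27, adjusted p = 3.7e-09). Without siELMO1 0 h replicate 1 the value in siELMO1 was 3.85. SLIT2 (ENSG00000145147.20, chr4:20251905-20620561, plus strand), a ligand of members of the ROBO family, was far more abundant. It was at 155, 157 and 149 CPM in Mock, 114, 103 and 105 in siNT and 148, 164 and 163 in siELMO1 at 0 h. At 24 h it was at 752, 831 and 750.2 CPM in Mock, 369, 374 and 395 in siNT and 539.8, 519.7 and 516 in siELMO1. Every 24 h library lay above every 0 h library, and at 24 h siNT was lowest and Mock highest without overlap. The log2 fold changes were 2.34 ± 0.06 in Mock, 1.82 ± 0.06 in siNT and 1.73 ± 0.06 in siELMO1 (adjusted p = 4.2e-16, 2.4e-14 and 2.7e-14), and 1.69 in siELMO1 without replicate 1. SEMA4B rose by 1.07, 1.23 and 1.41 on the log2 scale, so the 0 h order of the transfections was kept.

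PLXNC1 (ENSG00000136040.9, chr12:94148577-94307675, plus strand), a receptor of SEMA7A, was at 0.612, 0.703 and 0.716 CPM in Mock, 0.523, 0.839 and 0.734 in siNT and 0.994, 0.728 and 0.759 in siELMO1 at 0 h. After 24 h of poly(I:C) it was at 2.08, 1.79 and 1.37 CPM in Mock, 1.05, 1.52 and 1.35 in siNT and 3.56, 2.50 and 2.88 in siELMO1. It rose in each transfection, in siELMO1 by 3.58-fold (log2 fold change 1.84 ± 0.25, adjusted p = 6.6e-06, and 2.00 without siELMO1 0 h replicate 1). Its response was higher in siELMO1 than in siNT (difference of log2 fold changes 0.93 ± 0.35, adjusted p = 0.047, a call lost under 19 of 26 other settings) and not called against Mock (0.48 ± 0.35, adjusted p = 0.34), and 9.88% of its exon bases lie under exons on the other strand. PLXNA4 fell by 4.03-fold in Mock (log2 fold change -2.01 ± 0.12, adjusted p = 1.1e-10), 2.54-fold in siNT (log2 fold change -1.34 ± 0.12, adjusted p = 3.6e-08) and 2.22-fold in siELMO1 (log2 fold change -1.15 ± 0.11, adjusted p = 1.3e-07). PLXND1 fell most in Mock (log2 fold change -0.90 ± 0.11) and less in siNT (-0.38 ± 0.11) and siELMO1 (-0.31 ± 0.11). EFNA5 fell by 1.55-fold in Mock, 1.25-fold in siNT and 1.42-fold in siELMO1.

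Interaction terms compared how far each transfection moved from 0 h to 24 h of poly(I:C). Between siELMO1 and siNT 4 members had a higher and 13 a lower response in siELMO1 (16.7% and 17.8% of all genes), between siELMO1 and Mock 12 and 8 (13.8% and 14.6%), and between siNT and Mock 11 and 5 in siNT (15% and 16%; 15 and 4 without TMM factors). The 3 tests share libraries. The 4 became 2 without a filter on low counts and without 1 of replicates 2 and 3 of siELMO1 at 0 h, replicates 1 and 3 of siELMO1 at 24 h and replicate 3 of siNT at 0 h. NRP2 had the smallest adjusted p of the members against both siNT and Mock: it rose in Mock (log2 fold change 0.90 ± 0.06) and siNT (0.97 ± 0.06) and fell in siELMO1 (-0.19 ± 0.06), where it was already high at 0 h (difference of log2 fold changes -1.17 ± 0.08, adjusted p = 3.7e-09 against siNT, difference of log2 fold changes -1.10 ± 0.08, adjusted p = 2e-08 against Mock, and -1.24 and -1.16 without siELMO1 0 h replicate 1). The fall in siELMO1 lost its call in the fit to the compared groups alone. NTN4 fell in Mock (-1.11 ± 0.06) and siELMO1 (-0.76 ± 0.06) and rose slightly in siNT (0.18 ± 0.06), where it was low at 0 h. SEMA3C rose in Mock (0.65 ± 0.05) and siELMO1 (0.83 ± 0.05) but was not called in siNT (-0.04 ± 0.05), where it was high from the start. The SEMA3C libraries at 24 h, at 189.9, 182 and 192 CPM in Mock, 214, 198 and 209 in siNT and 202, 188 and 187 in siELMO1, lay close together.

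EPHB2 (ENSG00000133216.17, chr1:22710839-22921500, plus strand), a receptor of B ephrins, was at 187, 196 and 184 CPM in Mock, 137, 134 and 136 in siNT and 120.3, 123 and 134 in siELMO1 at 0 h. With poly(I:C) it was at 124, 128 and 133 CPM in Mock, 124, 126 and 132 in siNT and 153, 159 and 165 in siELMO1. It thus fell in Mock (log2 fold change -0.56 ± 0.05), was not called in siNT (-0.09 ± 0.05) and rose in siELMO1 (0.34 ± 0.05), a difference of 0.89 ± 0.07 between siELMO1 and Mock (adjusted p = 4.3e-08, and 0.86 without siELMO1 0 h replicate 1). EPHA5 (ENSG00000145242.14, chr4:65319563-65670495, minus strand), a receptor of A ephrins, was at 7.51, 7.83 and 7.15 CPM in Mock, 7.07, 6.50 and 7.53 in siNT and 8.51, 9.34 and 8.97 in siELMO1 at 0 h. The 24 h libraries were at 6.55, 6.89 and 7.40 CPM in Mock, 5.75, 5.08 and 5.50 in siNT and 4.19, 3.96 and 3.68 in siELMO1. The siELMO1 libraries went from the highest to the lowest of the 3 groups, with a log2 fold change of -1.18 ± 0.10 against -0.11 ± 0.09 in Mock (difference adjusted p = 1.2e-05, and a difference of -1.10 without siELMO1 0 h replicate 1). PLXNA1 was at 54.3, 58.1 and 58.0 CPM in Mock, 68.1, 59.1 and 62.0 in siNT and 121, 109.6 and 108 in siELMO1 at 0 h. From 0 h to 24 h PLXNA1 rose in siNT (0.47 ± 0.06) and fell in Mock (-0.34 ± 0.06).

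Genes that work with these receptors inside the cell were counted from lists given by name, beside 31.3% higher and 31.3% lower of all genes against siNT and 27.9% and 22.4% against Mock, and several of the counts are near or below these shares. Of 26 tested partners of plexins and neuropilins, 13 were higher and 7 lower in siELMO1 than in siNT at 0 h, and 10 were higher and 2 lower than in Mock. They include KDR, the VEGF receptor that works with NRP1, with log2 fold changes of 1.63 and 2.07 at 0 h, and LIMK1, a kinase of the actin factor cofilin, with 1.00 and 0.86. The 2 lower than Mock, RRAS2 and MET, were lower than siNT too. Their log2 fold changes against siNT and Mock were -1.01 and -0.39 for RRAS2 and -0.87 and -0.32 for MET. Of 12 tested partners of ephrins and Eph receptors 9 were higher and 0 lower than in siNT (7 and 1 against Mock), among them ADAM10, a protease that cuts ephrins, with 0.69 and 0.59. Of 11 SLIT and ROBO partners 6 were higher and 3 lower than in siNT and 2 and 1 than in Mock, and of 8 netrin and UNC5 partners 4 and 2 against either control. Of the 7 genes of the RAC arm 4 were higher and 3 lower than in siNT and 3 and 1 than in Mock, and DOCK1, the partner of ELMO1, was at 1.28 and 0.41.

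The transcript matrix shows which isoforms carried the counts. NTN4-201 held over 99% of the NTN4 counts in every library, SEMA4B-202 held 97.3 to 98.8% in Mock and 97.3 to 98.3% in siELMO1 at 0 h, and SLIT2-204 was the main SLIT2 transcript. PLXNA4 was split between PLXNA4-202 and PLXNA4-201, with the share of PLXNA4-201 running from 32.0 to 90.6% among the siELMO1 libraries at 0 h and from 4.69 to 97.1% among the Mock libraries at 24 h, a wide spread between replicates of 1 condition. ROBO4-208 held 14.9 to 24.9% of the ROBO4 counts in siELMO1 at 0 h against 0 to 4.02% in siNT and 0 to 11.8% in Mock, given with no test.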

How the data were processed

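RNA was sequenced from 18 EA.hy926 libraries, 3 biological replicates for each of 6 conditions, grouped by the sample labels. The authors deposited a gene matrix and a transcript matrix of estimated counts (expected counts from assembled coverage, whole numbers in the files), and the submitters' processing notes name STAR, StringTie and GRCh38. Versions, and whether strand was used in counting, were not given in the sources used here, and 40 members are overlapped by a gene on the other strand and 24 by a gene on the same strand. Library totals were 40.4 to 73.9 M. Genes with at least 100 counts in all and at least 1 CPM in a library were kept (15167 of 62754), scaled by TMM and tested over all 18 libraries with the quasi-likelihood test of edgeR 4.0.16 in R 4.3.3, with Benjamini-Hochberg adjustment over all genes tested and a threshold of 0.05. The steps were checked on simulated counts. Alternatives were DESeq2 1.42.0, limma 3.58.1 (voom, without the random effect of the study), other scalings and filters, only the groups compared, the replicate number as a block and leaving out each library. Counts of members called in several comparisons together were added as alternatives after seeing the data. Levels per length used union exon bases of GENCODE.

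Members and gene lists were chosen with earlier results of these data known. Named with full statistics were, in each pairwise comparison, the 3 members with the largest called change over 2-fold and a mean of at least 1 CPM, and for interactions the 3 with the smallest adjusted p. In each role the 2 highest per length were also named. Of these EFNB1, NRP1, PLXNB2 and SEMA6B were given by condition means without test values. EFNA5, EPHA4, SEMA3D, SEMA4D, PLXNA2, PLXNB1, ROBO1, ROBO3, SLIT3 and the partner genes given with values were named after their values were seen. Same-numbered libraries deviated together in all 3 pairs (r over 0.1) only between Mock and siNT at 24 h (0.215, 0.277 and 0.326 over 9644 genes).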

Additional observations from a re-analysis of the deposited data

Results flagged for a closer look

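In 9 cases the poly(I:C) response of a guidance gene, as a log2 fold change between 24 h and 0 h, differed between 2 transfections by the interaction test. Between siELMO1 and siNT the difference was 0.87 for SEMA3C, -0.94 for NTN4 and -1.17 for NRP2. Between siELMO1 and Mock it was 0.89 for EPHB2, -1.07 for EPHA5 and -1.10 for NRP2. Between siNT and Mock it was -0.68 for SEMA3C, 1.29 for NTN4 and 0.82 for PLXNA1. The causes were not tested.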

How the results depend on the processing

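Of 297 member differences called, 239 were called under all 26 other settings, 58 were lost under at least 1, and none changed direction. DESeq2 lost 0 and the fit without a filter on low counts lost 37. Requiring a fold over 2 as well left 10 of 35 calls for siELMO1 against siNT at 0 h and 12 of 30 at 24 h, 4 of 29 and 10 of 30 against Mock, and 3 of 21 and 6 of 26 for siNT against Mock. It left 10 of 28 poly(I:C) calls in Mock, 4 of 23 in siNT and 7 of 22 in siELMO1, and 4 of 17, 3 of 20 and 4 of 16 interaction calls (siELMO1 against siNT, siELMO1 against Mock, siNT against Mock). Without a filter the first of these interactions had 11 calls. Lower than both controls at 0 h were 4 members instead of 2 without TMM factors and with the replicate number as a block. Leaving out 1 library gave 31 to 35, 27 to 31 and 18 to 23 calls at 0 h, 27 to 32, 27 to 31 and 24 to 28 at 24 h, 25 to 29, 17 to 26 and 17 to 24 for poly(I:C), and 12 to 18, 15 to 22 and 15 to 21 for the interactions, in the same orders. It gave 2 to 3 members lower than both controls at 0 h, 2 to 4 at 24 h, and 2 to 4 lower after poly(I:C) in all transfections. The replicate block gave 36, 31 and 22 calls at 0 h and 30, 30 and 27 at 24 h, 28, 26 and 25 for poly(I:C) and 16, 19 and 18 for the interactions. Between Mock and siNT at 24 h it changed no call other than that of SEMA3D. Over 45 same-numbered pairs the median correlation was 0.0447 (-0.276 to 0.424), and 15 were over 0.1. Genes near 1 CPM such as UNC5B and SLIT3 are limited by depth, and the causes of the lost calls were not tested.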

Other observations

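Guidance partners that changed against both controls at both times were in several lists. DOCK1, the exchange factor that ELMO1 binds, was higher in siELMO1 at 24 h too (log2 fold change 0.68 against siNT and 0.58 against Mock), while DOCK5 was lower (-0.48 and -0.40 at 0 h, -1.15 and -0.34 at 24 h). KDR was also higher at 24 h (1.18 ± 0.28 and 2.22 ± 0.29), but its siELMO1 libraries were widely spread. It was at 27.3 ± 14.7 CPM in siELMO1, 12.1 ± 0.423 in siNT and 5.86 ± 2.21 in Mock (mean ± SD). FLT1, another VEGF receptor, was higher at 24 h too (0.64 and 0.48). RRAS2 was lower at 24 h too (-0.54 against siNT and -0.29 against Mock). MICAL2, an enzyme that acts on actin, was higher by a log2 fold change of 2.65 against siNT and 0.99 against Mock at 0 h. FLRT2, a ligand of UNC5 receptors, was higher by 0.79 and 1.23 at 0 h. RGMB, a ligand of the netrin receptor neogenin, had log2 fold changes of -1.11 and -0.79 at 0 h, and ADORA2B, an adenosine receptor, of -1.49 and -0.85. At 24 h, where 26% of all genes were higher and 26.5% lower than in siNT (21.6% and 22% against Mock), 11 of 26 tested plexin and neuropilin partners were higher and 8 lower than in siNT (12 and 6 against Mock). Of 12 ephrin and Eph partners 9 were higher and 1 lower (6 and 2), of 11 SLIT and ROBO partners 5 and 4 (2 and 1), of 8 netrin and UNC5 partners 4 and 2 (6 and 2) and of 7 genes of the RAC arm 3 and 3 (1 and 1), so several counts are near or below the shares of all genes.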
